A study of Mus musculus with 9 samples.

Results

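The genes examined here are 34 genes of red cell formation and heme synthesis, in 8 classes: globins (3), heme enzymes (7), mitochondrial carriers (2), membrane and membrane skeleton (6), blood group and surface proteins (5), erythroid transcription factors (4), receptors (2) and other erythroid proteins (5). They were given as a list of symbols, and all 34 had a row among the 22354 gene symbols of the table. Each was represented by 1 row, the one with the highest mean over all 9 arrays. RNA came from the tibia of female mice whose labels give an age of 2 months, on GeneChip Mouse Gene 2.0 ST arrays, with 3 arrays in each of 3 groups. The active group had a tibia fracture and received the NSAID carprofen, a COX inhibitor, at 20 mg/kg for 3 days at ZT13, in the active phase of the mice. The resting group had the same fracture and the same drug at ZT2, in their resting phase. The control group had neither fracture nor NSAID. All tissue was taken at ZT6, and in the fractured mice this was 78 hours after surgery, with a gap since the last injection of over 18 hours in active and over 30 hours in resting mice. The central part of the bone was taken with its callus and hematoma, so bone, marrow, blood and adhering muscle could all contribute RNA. Per the methods, the surgery also placed a spinal needle wire in the marrow canal of the tibia, under isoflurane and buprenorphine. Control mice had no surgery. No mice had a fracture without NSAID, so drug, fracture and the rest of the surgery cannot be told apart in any comparison with control. The interval between last dose and harvest thus cannot be told apart from the phase of dosing. The study speaks of RNA pools, so the spread between arrays is that of the RNA samples and may be in part technical.

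Red cells form in the bone marrow from progenitors that depend on erythropoietin and on the factors GATA1, TAL1 and KLF1. The maturing erythroblast takes up iron through the transferrin receptor, makes heme by a chain of enzymes that starts and ends in the mitochondrion, fills with hemoglobin, and builds a membrane braced by spectrin and ankyrin. Young red cells keep RNA for a short time after they leave the marrow, so both marrow and blood in a tissue sample carry these transcripts.

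All 34 genes were lower in both fracture groups than in control, most of them several-fold, and for each of them all 6 fracture arrays lay below all 3 control arrays. In the active group 34 of 34 passed an adjusted p under 0.05 in limma as lower, where 12.1% of all rows did, and the median log2 difference from control was -2.57 (a 5.94-fold lower signal), against 0.02 over all rows. In the resting group 33 of 34 passed as lower, where 10.0% of all rows did, with a median of -2.11 (4.33-fold), against 0.02 over all rows. The exception was Hbb-b1. Of all rows, 17.6% did not overlap and were lower in the active group than in control, and 17.8% in the resting group. An exact permutation test of 3 arrays against 3 gives a two-sided p of 0.10 at the smallest, and each of the 34 genes reached that value in both comparisons. The order of the group means was active, then resting, then control, from low to high, in 31 genes. In the other 3, Uros, Sptb and Tmod1, the resting group was lowest. In whole tissue, fewer erythroid cells and less RNA per cell cannot be told apart.

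**Figure D1:**
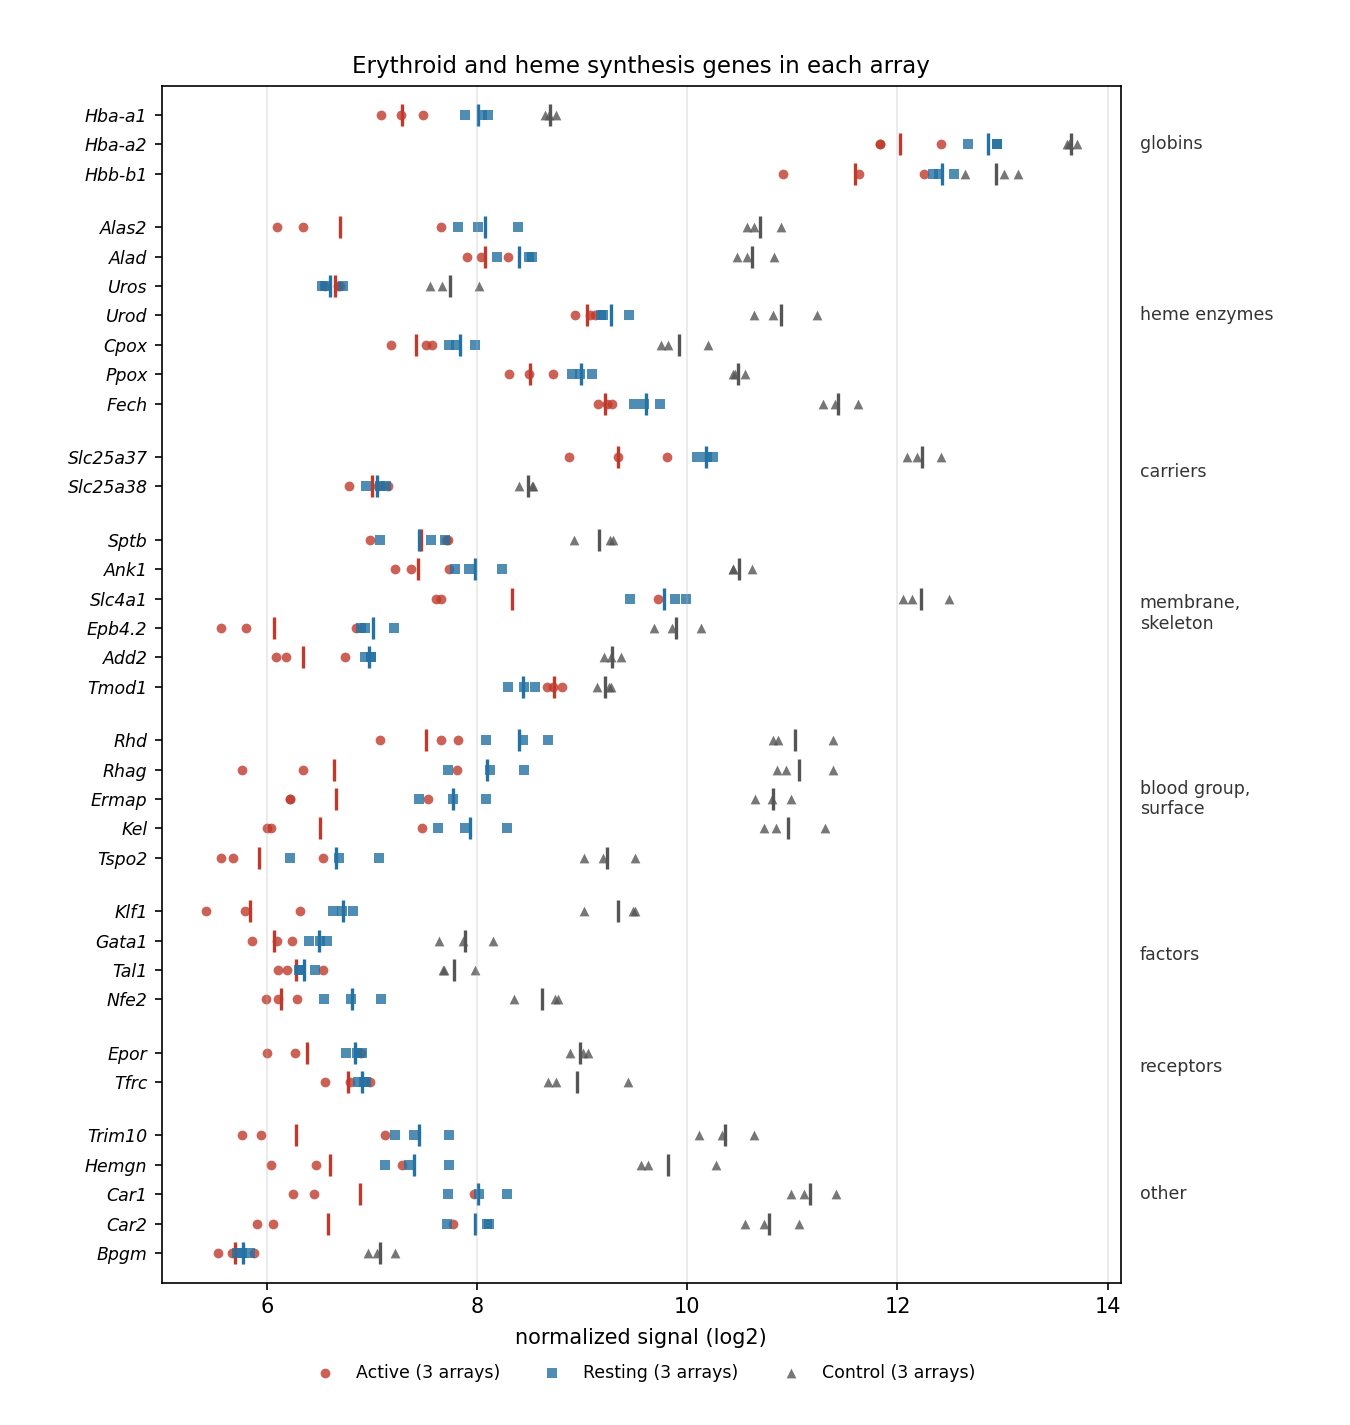
Normalized signal (log2, x axis) of each of the 34 genes in each of the 9 arrays, grouped by class, with active arrays as circles, resting arrays as squares, control arrays as triangles and a vertical tick at each group mean. All 6 fracture arrays lie left of the 3 control arrays for every gene. The signal of one gene is not to be set against that of another, since probes differ.

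Among the erythroid transcription factors, Klf1 showed the widest gap from control. Klf1 encodes a zinc finger factor that binds CACCC boxes in globin and other erythroid promoters. Its log2 signal was 6.31, 5.42 and 5.79 in the active arrays, 6.81, 6.72 and 6.63 in the resting arrays and 9.02, 9.49 and 9.51 in the control arrays. The 3 groups formed 3 separate ranges, with no overlap between any pair. The log2 difference from control was -3.50 (SE 0.21, adjusted p = 3.2e-06) in the active group and -2.62 (SE 0.21, adjusted p = 2.15e-05) in the resting group. Gata1, the X-linked factor on which erythroid and megakaryocytic maturation depends, had 5.86, 6.24 and 6.09 in the active arrays, 6.57, 6.50 and 6.40 in the resting arrays and 7.63, 7.87 and 8.15 in the control arrays. Its ranges also stayed apart, at a smaller distance: the difference from control was -1.82 (SE 0.15, adjusted p = 1.23e-05) for active and -1.39 (SE 0.15, adjusted p = 9.51e-05) for resting. Nfe2, whose product binds globin control regions and also acts in megakaryocytes, averaged 6.13 ± 0.15 in active, 6.81 ± 0.28 in resting and 8.62 ± 0.23 in control arrays (SD, n = 3 each), a difference from control of -2.49 and -1.81 for active and resting. Tal1, a partner of GATA1 in a shared DNA-binding complex, averaged 6.27 ± 0.23 in active, 6.36 ± 0.09 in resting and 7.78 ± 0.18 in control arrays. Its log2 differences from control, -1.50 in active and -1.42 in resting arrays, lay close together.

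Both receptors were lower after fracture. Epor, the erythropoietin receptor, averaged 6.38 ± 0.46 in active, 6.84 ± 0.07 in resting and 8.98 ± 0.09 in control arrays (SD, n = 3 each), and its difference from control was -2.60 (SE 0.19, adjusted p = 8.39e-06) for active and -2.14 (SE 0.19, adjusted p = 3.35e-05) for resting. Tfrc, the receptor that brings transferrin-bound iron into the erythroblast and into other dividing cells, had 6.98, 6.55 and 6.79 in the active arrays, 6.92, 6.94 and 6.86 in the resting arrays and 8.75, 9.44 and 8.68 in the control arrays. Control replicate 2 was the highest array, and the ranges of the active and resting arrays overlapped. The difference of Tfrc from control was -2.18 (SE 0.19, adjusted p = 1.99e-05) in the active group and -2.04 (SE 0.19, adjusted p = 4.52e-05) in the resting group. All 12 proliferation genes examined were also called lower in both groups, where 12.1% of all rows were in active and 10.0% in resting arrays, with a median of -1.39 in active and -1.18 in resting arrays, and the part of cell division in the Tfrc difference was not tested.

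The 7 heme enzymes fell unequally. Alas2 had the largest difference in both groups, by a wide margin in active arrays (-3.996, against -2.54 for Alad, the next) and by less in resting arrays (-2.62, SE 0.33, against -2.22, SE 0.14, for Alad). Alas2 encodes the erythroid form of aminolevulinate synthase, which catalyses the first and rate-limiting step. Its log2 signal was 7.66, 6.10 and 6.34 in the active arrays, 8.004, 8.39 and 7.82 in the resting arrays and 10.63, 10.89 and 10.57 in the control arrays. Every active array was below every resting array, and the active arrays spread more widely than the others, with replicate 1 well above replicates 2 and 3. The difference from control was -3.996 (SE 0.33, adjusted p = 1.56e-05) in the active group, a 16-fold lower signal, and -2.62 (SE 0.33, adjusted p = 0.000318) in the resting group, a 6.16-fold lower signal. Alas1, the form used by most other tissues and counted outside the 34, had differences of only -0.52 (SE 0.11, adjusted p = 0.00618) and -0.32 (SE 0.11, adjusted p = 0.0714). The later enzymes follow in the order of the pathway. Alad, which joins 2 aminolevulinate molecules, differed from control by -2.54 in active and -2.22 in resting arrays.

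Uros closes the ring of the first porphyrin precursor, and it had the smallest difference of the 7 enzymes. Its log2 signal was 6.68, 6.70 and 6.55 in the active arrays, 6.55, 6.72 and 6.52 in the resting arrays and 7.55, 8.02 and 7.67 in the control arrays. The active and resting arrays covered nearly the same range, below all control arrays. It differed from control by -1.10 (SE 0.13, adjusted p = 0.00015) for active and -1.15 (SE 0.13, adjusted p = 0.000161) for resting. Urod, which removes carboxyl groups from the ring, averaged 9.04 ± 0.10 in active, 9.27 ± 0.15 in resting and 10.90 ± 0.31 in control arrays (SD, n = 3 each). Cpox and Ppox carry out the oxidations that lead to protoporphyrin. Cpox averaged 7.42 ± 0.21 in active, 7.84 ± 0.13 in resting and 9.92 ± 0.24 in control arrays, and Ppox averaged 8.51 ± 0.21 in active, 8.99 ± 0.10 in resting and 10.48 ± 0.06 in control arrays. Fech, which inserts iron into protoporphyrin as the last step, had 9.28, 9.15 and 9.23 in the active arrays, 9.49, 9.74 and 9.59 in the resting arrays and 11.29, 11.62 and 11.40 in the control arrays. The arrays of Fech lay close together within each group, and no ranges overlapped. Its difference from control was -2.22 (SE 0.12, adjusted p = 1.95e-06) for active and -1.83 (SE 0.12, adjusted p = 8.78e-06) for resting. Over the 7 enzymes the median difference was -2.22 in active and -1.83 in resting arrays.

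Mitochondrial carriers supply the pathway with its substrates. Slc25a37, or mitoferrin 1, brings iron into the mitochondrion of the erythroblast, and it averaged 9.34 ± 0.47 in active, 10.17 ± 0.08 in resting and 12.23 ± 0.17 in control arrays (SD, n = 3 each). Its log2 distance from control was -2.89 (SE 0.20, adjusted p = 6.36e-06) for active and -2.06 (SE 0.20, adjusted p = 5.62e-05) for resting. Slc25a38, which supplies glycine for the step that ALAS2 catalyses, had 7.16, 6.78 and 7.06 in the active arrays, 7.07, 6.95 and 7.13 in the resting arrays and 8.39, 8.53 and 8.52 in the control arrays. The active and resting arrays of Slc25a38 overlapped, and both groups lay more than 1 log2 unit below control, at -1.48 and -1.43.

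Globins, the protein chains of hemoglobin, had the smallest median differences of the 8 classes in the rows used, -1.41 in active and -0.68 in resting arrays. For Hba-a2, 1 of the adult alpha globin genes, the log2 signal was 12.41, 11.83 and 11.83 in the active arrays, 12.95, 12.95 and 12.67 in the resting arrays and 13.64, 13.71 and 13.61 in the control arrays. The control values were near 13.81, the highest value of any row in the table, and each group formed a range of its own. Whether signals so near the top of the scale are compressed was not tested, so the difference of Hba-a2 may be understated. Against control, the difference was -1.63 (SE 0.16, adjusted p = 4.08e-05) for active and -0.80 (SE 0.16, adjusted p = 0.00508) for resting. Hba-a1, its near-identical copy, had 7.48, 7.09 and 7.27 in the active arrays, 8.11, 8.04 and 7.88 in the resting arrays and 8.75, 8.64 and 8.68 in the control arrays. The groups again did not overlap, and the arrays within a group lay close together. Its difference from control was -1.41 (SE 0.12, adjusted p = 1.8e-05) for active and -0.68 (SE 0.12, adjusted p = 0.00252) for resting. The platform annotation assigns the rows of Hba-a1 and Hba-a2 to both genes, so the copies cannot be told apart.

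Hbb-b1, an adult beta globin gene, was the only gene of the 34 that did not pass in the resting group. Its log2 signal was 12.25, 11.63 and 10.91 in the active arrays, 12.40, 12.54 and 12.34 in the resting arrays and 13.02, 13.15 and 12.64 in the control arrays. The resting arrays lay below the control arrays without overlap, but control replicate 3 came close to them, and the active arrays spread over more than 1 log2 unit. Set against control, the log2 difference was -1.34 (SE 0.27, adjusted p = 0.0044) for active and -0.51 (SE 0.27, adjusted p = 0.247) for resting, with a 95% confidence interval of -1.11 to 0.09 for resting. The symbol had 3 rows, each annotated to several beta globin genes. The second row fell by 3.96 on the log2 scale in active arrays (adjusted p = 5.95e-05) and by 2.47 in resting arrays (adjusted p = 0.00168), and the third fell by 2.16 (adjusted p = 0.000183) and by 1.80 (adjusted p = 0.000823). The row used here was the brightest of the 3 and showed the smallest difference from control, so the size of the Hbb-b1 difference depends on which row is taken.

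The membrane and membrane skeleton genes all fell, by unequal amounts. In the rows used, Tmod1 and then Sptb had the smallest differences from control in both groups. Slc4a1, or band 3, is the anion exchanger that also anchors the skeleton to the membrane. Its log2 signal was 9.72, 7.66 and 7.60 in the active arrays, 9.88, 9.99 and 9.46 in the resting arrays and 12.13, 12.49 and 12.05 in the control arrays. Active replicate 1 lay within the range of the resting arrays, while active replicates 2 and 3 were far lower. The difference from control was -3.90 (SE 0.46, adjusted p = 0.000133) for active, with the largest SD of the 34 genes within a group (1.21), and -2.45 (SE 0.46, adjusted p = 0.00339) for resting. Epb4.2, or protein 4.2, which binds band 3, averaged 6.07 ± 0.68 in active, 7.01 ± 0.17 in resting and 9.89 ± 0.22 in control arrays (SD, n = 3 each). Ank1, the ankyrin that links band 3 to spectrin, averaged 7.44 ± 0.26 in active, 7.98 ± 0.23 in resting and 10.49 ± 0.11 in control arrays, with differences from control of -3.05 (SE 0.16, adjusted p = 1.95e-06) and -2.51 (SE 0.16, adjusted p = 8.58e-06). A second, dimmer row of Ank1 had a difference of only -0.30 (adjusted p = 0.052) in active and -0.31 (adjusted p = 0.0573) in resting arrays. Add2, or beta adducin, which caps actin at the junctions of the skeleton, averaged 6.34 ± 0.35 in active, 6.97 ± 0.03 in resting and 9.28 ± 0.08 in control arrays.

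Sptb, the erythroid beta spectrin that is also made in muscle, had 7.72, 6.98 and 7.70 in the active arrays, 7.56, 7.70 and 7.07 in the resting arrays and 8.93, 9.27 and 9.29 in the control arrays. One active array and 1 resting array lay low, and the ranges of both groups overlapped almost fully. Its log2 distance from control was -1.69 (SE 0.22, adjusted p = 0.000273) for active and -1.72 (SE 0.22, adjusted p = 0.000352) for resting. Tmod1 encodes tropomodulin 1, which caps actin filaments in the red cell skeleton and in striated muscle. Its log2 signal was 8.66, 8.72 and 8.81 in the active arrays, 8.55, 8.45 and 8.29 in the resting arrays and 9.14, 9.25 and 9.27 in the control arrays. All active arrays lay above all resting arrays, and all 6 lay below control. Against control, the difference was -0.49 (SE 0.10, adjusted p = 0.00556) for active, the smallest of the 34 genes, and -0.79 (SE 0.10, adjusted p = 0.000408) for resting. Beside it, 4 of 12 skeletal muscle genes were called higher in active than in control arrays and 0 of 12 in resting arrays, where 11.8% and 9.08% of all rows were called higher. The summed linear signal of the muscle list was 46060 to 54000 in active, 39050 to 49800 in resting and 35550 to 42240 in control arrays, and the part of muscle in the values of Tmod1 and Sptb was not tested.

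The largest differences were those of the blood group and surface proteins, with a median of -4.16 in active arrays (17.8-fold lower) and -2.96 in resting arrays (7.80-fold lower). Kel, the Kell blood group antigen, a membrane-bound peptidase, had 7.48, 6.04 and 5.996 in the active arrays, 7.88, 8.28 and 7.63 in the resting arrays and 10.73, 11.31 and 10.84 in the control arrays. Active replicates 2 and 3 were nearly equal and far below replicate 1, which in turn lay just below the lowest resting array. The difference of Kel from control was -4.46 (SE 0.35, adjusted p = 1.14e-05) in the active group, the largest of the 34 genes and a 22-fold lower signal, and -3.03 (SE 0.35, adjusted p = 0.000178) in the resting group. Rhag, the glycoprotein that carries the Rh complex to the membrane, had 7.81, 6.34 and 5.76 in the active arrays, 8.12, 8.44 and 7.72 in the resting arrays and 10.94, 11.38 and 10.85 in the control arrays. Here active replicate 1 lay inside the resting range. Its difference from control was -4.42 (SE 0.42, adjusted p = 3.41e-05) for active and -2.96 (SE 0.42, adjusted p = 0.000629) for resting. Ermap, which carries the Scianna blood group antigens in humans, had 7.53, 6.22 and 6.22 in the active arrays, 7.77, 8.08 and 7.45 in the resting arrays and 10.65, 10.98 and 10.81 in the control arrays. The pattern was that of Rhag, with 1 active array among the resting arrays and the others far below. Ermap differed from control by -4.16 (SE 0.31, adjusted p = 9.67e-06) in active and -3.05 (SE 0.31, adjusted p = 8.11e-05) in resting arrays. Rhd, the Rh polypeptide, averaged 7.51 ± 0.39 in active, 8.40 ± 0.30 in resting and 11.02 ± 0.32 in control arrays (SD, n = 3 each). Tspo2, an erythroid relative of the translocator protein, averaged 5.93 ± 0.53 in active, 6.66 ± 0.42 in resting and 9.24 ± 0.24 in control arrays.

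Of the other erythroid proteins, the carbonic anhydrases Car1 and Car2, which interconvert carbon dioxide and bicarbonate, had among the largest differences. Car1 had 7.97, 6.45 and 6.25 in the active arrays, 7.72, 8.28 and 8.01 in the resting arrays and 11.11, 11.42 and 10.99 in the control arrays. Active replicate 1 again stood among the resting arrays. Set against control, the log2 difference was -4.28 (SE 0.37, adjusted p = 1.94e-05) for active and -3.17 (SE 0.37, adjusted p = 0.000184) for resting, the largest of the 34 in the resting group. Car2 had 7.77, 6.05 and 5.91 in the active arrays, 8.12, 8.10 and 7.71 in the resting arrays and 10.55, 11.06 and 10.72 in the control arrays, the same arrangement of arrays. It differed from control by -4.20 (SE 0.40, adjusted p = 3.41e-05) in active and -2.80 (SE 0.40, adjusted p = 0.00065) in resting arrays. Osteoclasts also use Car2 to make acid. Of 9 osteoclast genes, 3 were called lower and 1 higher in active arrays, and 2 lower and 1 higher in resting arrays, where 12.1% and 10.0% of all rows were called lower and 11.8% and 9.08% higher in active and resting arrays. With 9 genes, these shares do not stand clear of those over all rows. Trim10, needed for the terminal maturation of red cells in mouse, averaged 6.28 ± 0.73 in active, 7.45 ± 0.26 in resting and 10.36 ± 0.26 in control arrays (SD, n = 3 each). Hemgn, a nuclear protein of blood progenitors, averaged 6.60 ± 0.63 in active, 7.40 ± 0.31 in resting and 9.82 ± 0.39 in control arrays. Bpgm makes the bisphosphoglycerate that lowers the oxygen affinity of hemoglobin. It averaged 5.69 ± 0.17 in active, 5.77 ± 0.06 in resting and 7.08 ± 0.13 in control arrays, and its differences from control, -1.38 and -1.31 for active and resting, lay close together.

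**Figure D2:**
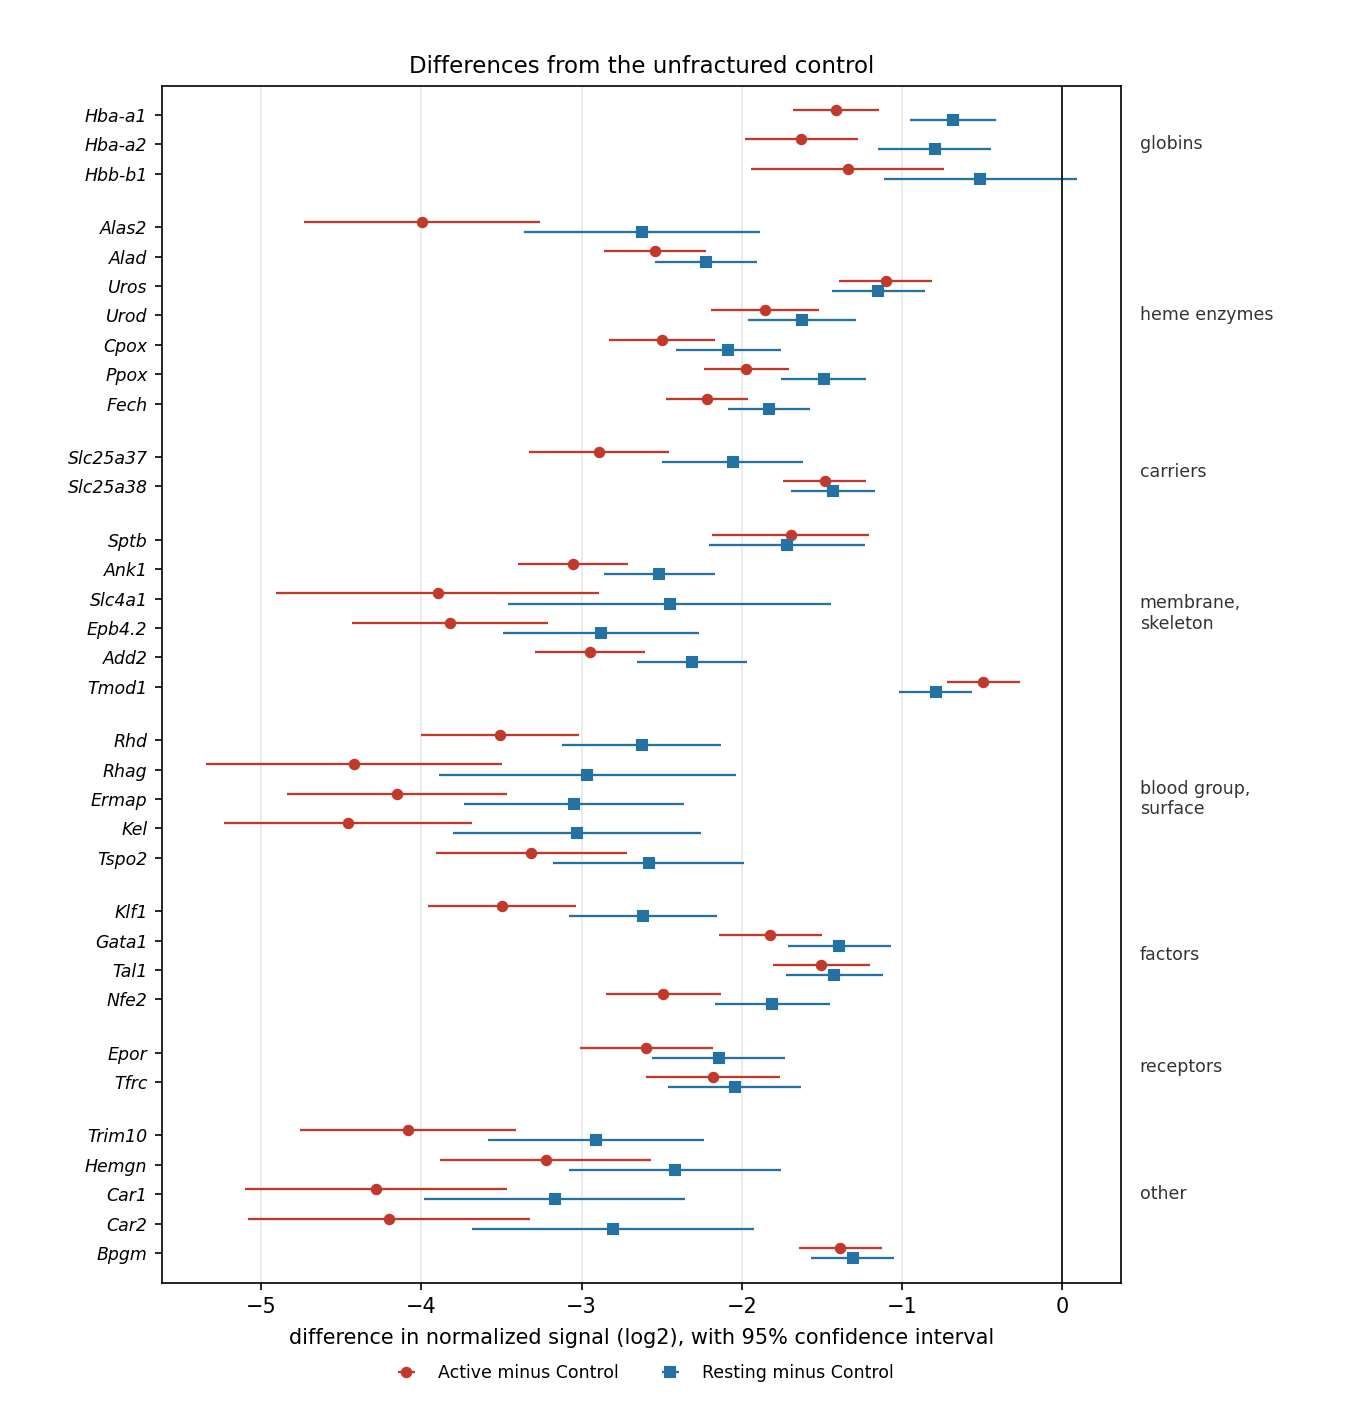
Log2 difference from control (x axis, with 95% confidence interval) of each of the 34 genes, for active (circles) and resting arrays (squares). Differences in the active group run from -4.46 for Kel to -0.49 for Tmod1 and in the resting group from -3.17 for Car1 to -0.51 for Hbb-b1, whose interval alone includes 0.

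By class, the median log2 differences from control in the active group were -4.16 for blood group and surface proteins, -4.08 for other erythroid proteins, -2.999 for membrane and membrane skeleton, -2.39 for receptors, -2.22 for heme enzymes, -2.19 for mitochondrial carriers, -2.15 for transcription factors and -1.41 for globins. In the resting group the medians ran from -2.96 for blood group and surface proteins to -0.68 for globins, which were the extremes in both groups with the rows used. These are differences within each gene, and the classes themselves were not tested against each other.

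The wider erythroid programme was examined with 70 further genes that had a row, of 80 symbols listed. Of these, 52 were called lower in the active group and 50 in the resting group, and 0 were called higher in either, with medians of -1.13 and -1.02. Of all rows, 12.1% were called lower and 11.8% higher in active arrays, and 10.0% lower and 9.08% higher in resting arrays. Late clearance and antioxidant genes were all called lower, 12 of 12 in both groups. Among them, Trim58, a ubiquitin ligase that acts on dynein when mouse erythroblasts lose their nucleus, had -3.17 in active and -2.31 in resting arrays, and Blvrb, biliverdin reductase B, had -2.06 and -1.88. Of 15 other membrane and skeleton genes, 13 were called lower in each group. Epb4.9, or dematin, which bundles actin, differed by -2.62 in active and -2.29 in resting arrays. Of 11 other factors, 10 were called lower in each group, with Gfi1b, a repressor needed in red cell and platelet precursors, at -2.98 and -2.39 and Bcl11a, which silences embryonic globins in mouse, at -2.55 and -2.07.

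Of 10 other heme genes, 8 were called lower in each group. Abcb10, a mitochondrial transporter that stabilises mitoferrin 1, had -2.17 in active and -2.01 in resting arrays. Of 5 other globin genes, 2 were called lower in each group (12.1% and 10.0% of all rows were), the theta globins Hbq1b (-2.91 and -2.50) and Hbq1a (-2.70 and -2.44). The embryonic globins Hba-x, Hbb-y and Hbb-bh1 did not pass, at -0.10, -0.13 and -0.17 in active and -0.07, -0.30 and -0.08 in resting arrays. Their rows were dim even in control arrays, with means of 4.18, 4.06 and 4.79, so a fall may not have been measurable. Of 9 genes of erythropoietin signalling, 5 were called lower in active and 3 in resting arrays, beside the same shares of all rows, led by Bcl2l1, a survival gene, at -1.62 and -1.39. Of 8 iron uptake genes, 2 were called lower in each group, a count that with so few genes does not stand clear of the 12.1% and 10.0% of all rows. They were Tfr2, transferrin receptor 2, at -1.70 (SE 0.16, adjusted p = 3.61e-05) and -1.69 (SE 0.16, adjusted p = 5.55e-05) and Exoc6, an exocyst subunit that moves transferrin receptors in mouse red cell precursors, at -0.57 and -0.52. The ferritin genes Fth1 and Ftl1 had 0.11 and 0.14 in active and 0.07 and 0.17 in resting arrays and did not pass.

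**Figure D3:**
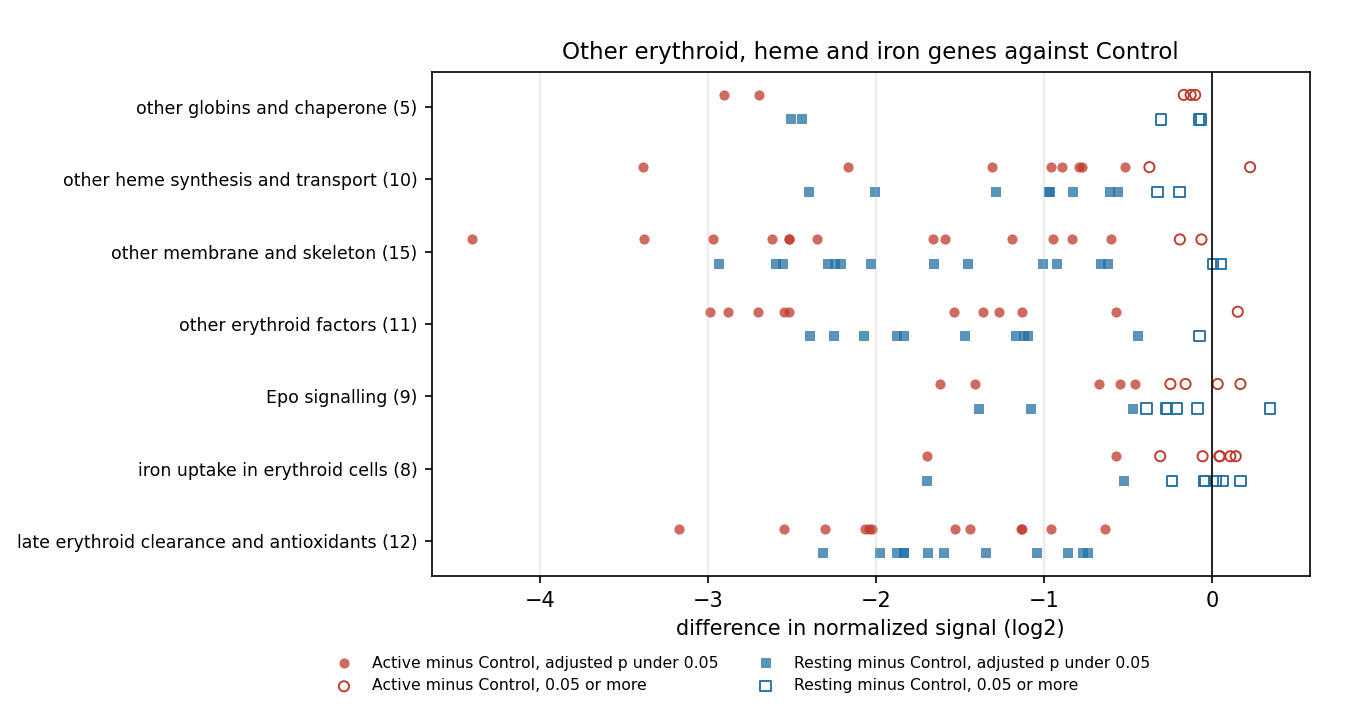
Log2 difference from control (x axis) of each of 70 further erythroid, heme and iron genes, by list (number of genes in brackets), for active (circles) and resting arrays (squares). Filled points passed an adjusted p under 0.05: 52 genes in active and 50 in resting arrays, all of them lower than control.

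Genes of B cells, megakaryocytes and neutrophils were lower too. Of 12 B cell genes, 11 were called lower in each group, of 12 megakaryocyte and platelet genes 10 in each, and of 17 neutrophil genes 17 in active and 8 in resting arrays, where 12.1% of all rows were called lower in active and 10.0% in resting arrays. The summed linear signal of the B cell list was 1263 to 1556 in active, 1310 to 1516 in resting and 4713 to 5348 in control arrays. The summed signal of the megakaryocyte list was 2848 to 3945 in active, 3944 to 4353 in resting and 9167 to 13300 in control arrays. By contrast, 11 of 12 fibroblast and repair matrix genes were called higher in active and 12 of 12 in resting arrays, where 11.8% and 9.08% of all rows were. Macrophage genes also differed from the marrow lists above: 6 of 11 were called higher and 2 lower in each group, with medians of 0.65 in active and 0.59 in resting arrays. Of 9 endothelium genes, 5 were called higher and 1 lower in active arrays, and 4 higher and 1 lower in resting arrays. Col1a1, the main collagen of bone, averaged 12.09 ± 0.33 in active, 12.22 ± 0.45 in resting and 11.48 ± 0.03 in control arrays (SD, n = 3 each). The share of marrow in the tissue taken, as a part of the erythroid differences, was not tested. Array medians over all rows lay between 6.34 and 6.40.

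NSAID timing was addressed by the active and resting groups alone. The active group had the lower mean for 31 of 34 genes, with a median log2 difference of -0.71 from the resting group, against -0.01 over all rows. None of these differences passed an adjusted p under 0.05 in limma (0.00% of all rows did), and the smallest adjusted p of the 34 was 0.28, for Hba-a1. At an unadjusted p under 0.05, 26 of 34 were lower, where 3.01% of all rows were, and 1 was higher, where 3.10% of all rows were. With a change of at least 1.5-fold as well, 19 were lower, where 0.607% of all rows were. The arrays of both groups did not overlap for 18 genes that were lower (4.77% of all rows) and for 1 that was higher (5.16% of all rows). Genes of 1 cell type are not independent of each other, so these counts are not separate pieces of evidence.

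The widest gaps between active and resting arrays were those of Rhag, -1.46 (SE 0.42, adjusted p = 0.569), Slc4a1, -1.45 (SE 0.46, adjusted p = 0.637), and Kel, -1.43 (SE 0.35, adjusted p = 0.532). These came to 2.75-fold, 2.73-fold and 2.69-fold lower signals in the active group. Kel did not overlap between the groups, while Rhag and Slc4a1 did, through active replicate 1. Car2 had -1.40 (SE 0.40, adjusted p = 0.567) and Alas2 -1.37 (SE 0.33, adjusted p = 0.532). Of the 3 globins, all were lower without overlap, Hba-a1 with -0.73 (95% confidence interval -0.997 to -0.47), Hba-a2 with -0.83 (-1.18 to -0.48) and Hbb-b1 with -0.83 (-1.43 to -0.23). Klf1 differed by -0.88 (SE 0.21, adjusted p = 0.532), Nfe2 by -0.68 and Gata1 by -0.43, all without overlap. Among the 6 later heme enzymes the differences ran from -0.48 for Ppox, with -0.39 for Fech, to 0.05 for Uros.

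A smaller set of genes was nearly level between the groups. Sptb had a difference of 0.02 (95% confidence interval -0.47 to 0.51), Uros of 0.05 (-0.24 to 0.34), Slc25a38 of -0.05 (-0.31 to 0.21), Bpgm of -0.08 (-0.34 to 0.18), Tal1 of -0.08 (-0.38 to 0.22) and Tfrc of -0.13 (-0.55 to 0.28). Tmod1 was the only gene of the 34 whose arrays were all higher in the active group, at 0.30 (SE 0.10, adjusted p = 0.711), an interval of 0.07 to 0.53. By class, the median differences were -1.12 for other erythroid proteins, -1.11 for blood group and surface proteins, -0.83 for globins, -0.59 for membrane and membrane skeleton, -0.56 for transcription factors, -0.44 for mitochondrial carriers, -0.39 for heme enzymes and -0.29 for receptors. Whether these classes differ from each other was not tested. Over the 70 further erythroid, heme and iron genes the median was -0.16, with 54 lower and 16 higher.

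**Figure D4:**
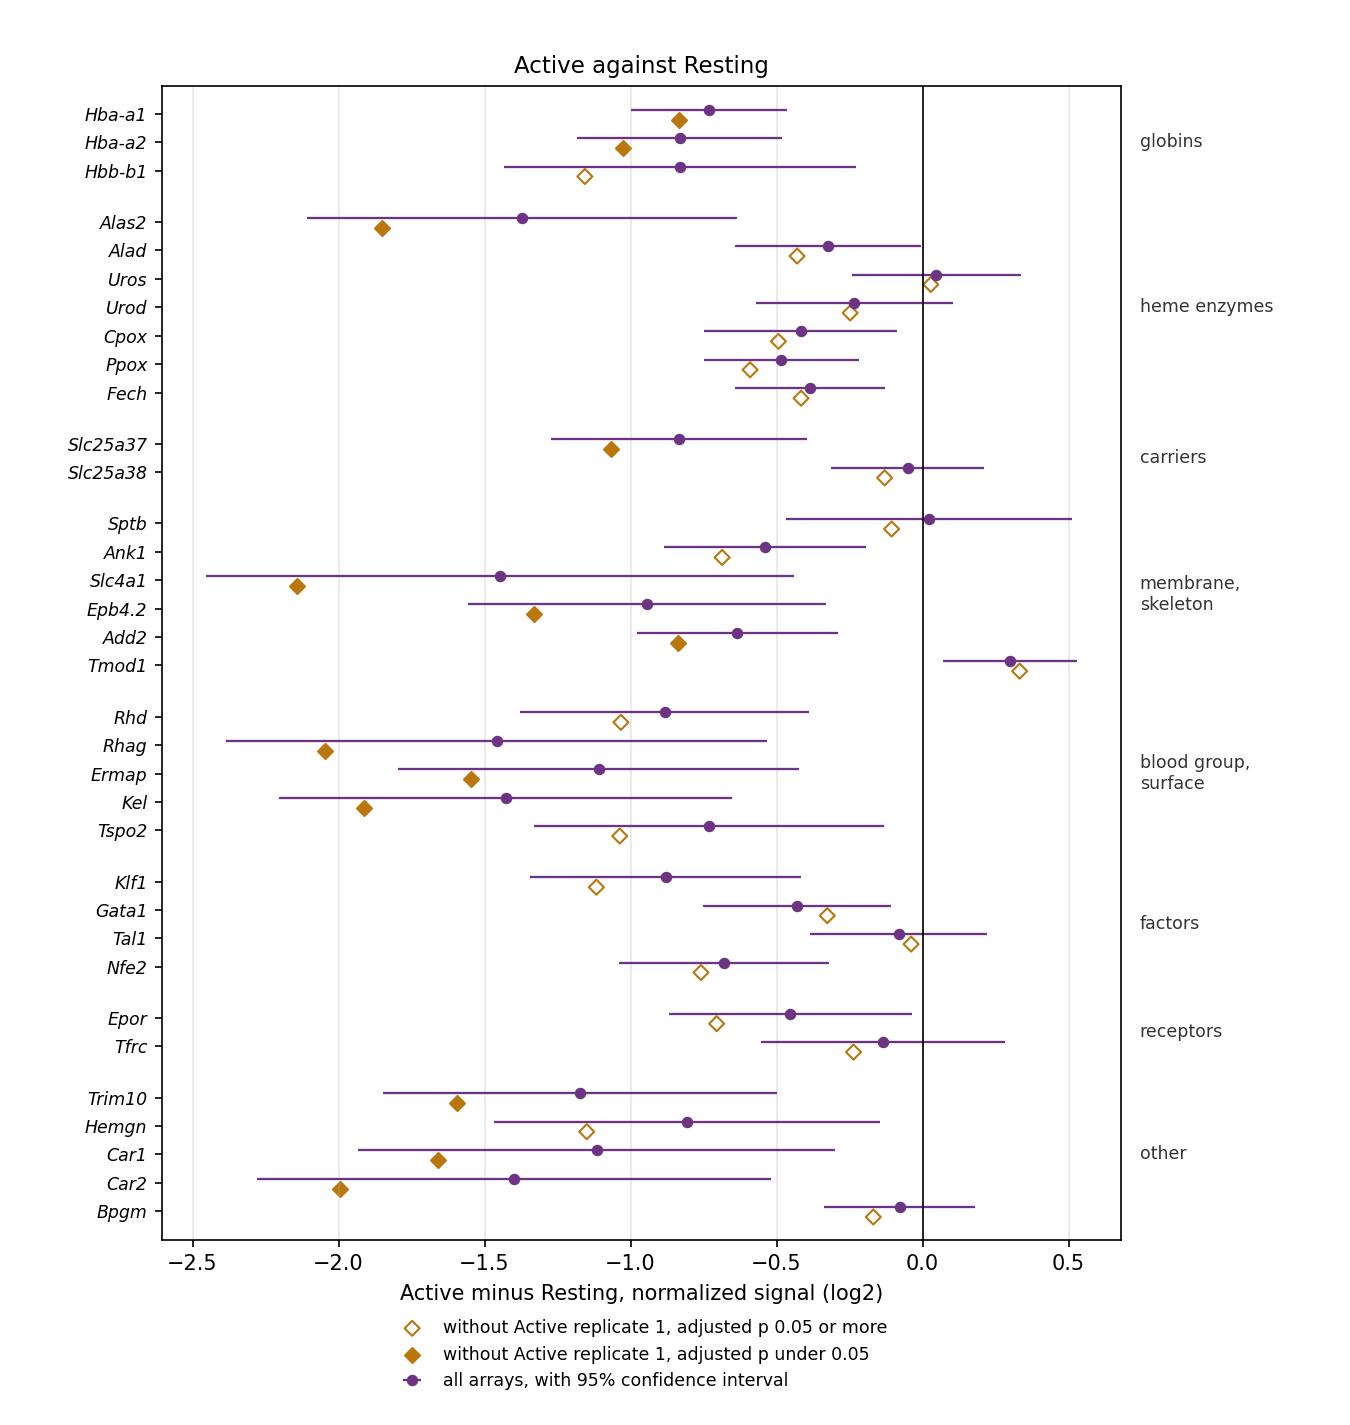
Log2 difference of active from resting arrays (x axis) for each of the 34 genes, with all arrays (circles, with 95% confidence interval) and without active replicate 1 (diamonds, filled where the adjusted p was under 0.05). With all arrays 31 genes lie below 0 and none passed, and without active replicate 1 the 13 filled genes passed.

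Spread of these genes in the active group was wide, and 1 array was the highest for most of them. The median SD of the 34 genes was 0.371 in active, 0.155 in resting and 0.224 in control arrays, against 0.157, 0.129 and 0.138 over all rows. Active replicate 1 was the highest of the 3 active arrays for 29 of the 34 genes. It lay below all resting arrays for 19 genes, within their range for 10 and above it for 5, while active replicate 2 lay below all resting arrays for 32 genes and active replicate 3 for 29. The mean log2 signal of the 34 genes was 7.81, 7.11 and 7.14 in the active arrays, 8.05, 8.14 and 7.85 in the resting arrays and 9.92, 10.24 and 10.01 in the control arrays. Active replicate 1 also had the highest value of its group in the neutrophil list, with means of 10.12, 9.51 and 9.86 in active and 10.65, 10.34 and 10.42 in resting arrays, and in the B cell list, with 6.56, 6.04 and 6.22 in active and 6.46, 6.20 and 6.42 in resting arrays. It was highest of its group in the megakaryocyte list too (7.33, 7.06 and 6.95), in the proliferation list (8.41, 8.11 and 8.22) and barely in the macrophage list (8.791, 8.55 and 8.787). In the osteoclast, skeletal muscle, fibroblast and endothelium lists it was not. All 17 neutrophil genes had lower means in active than in resting arrays, with a median of -0.53, and the B cell median was -0.10. Of 12 megakaryocyte genes, 11 had lower means, with a median of -0.31, and of 12 proliferation genes 10 did, with a median of -0.18. The part of other blood cells in the difference between active and resting arrays was not tested.

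**Figure D5:**
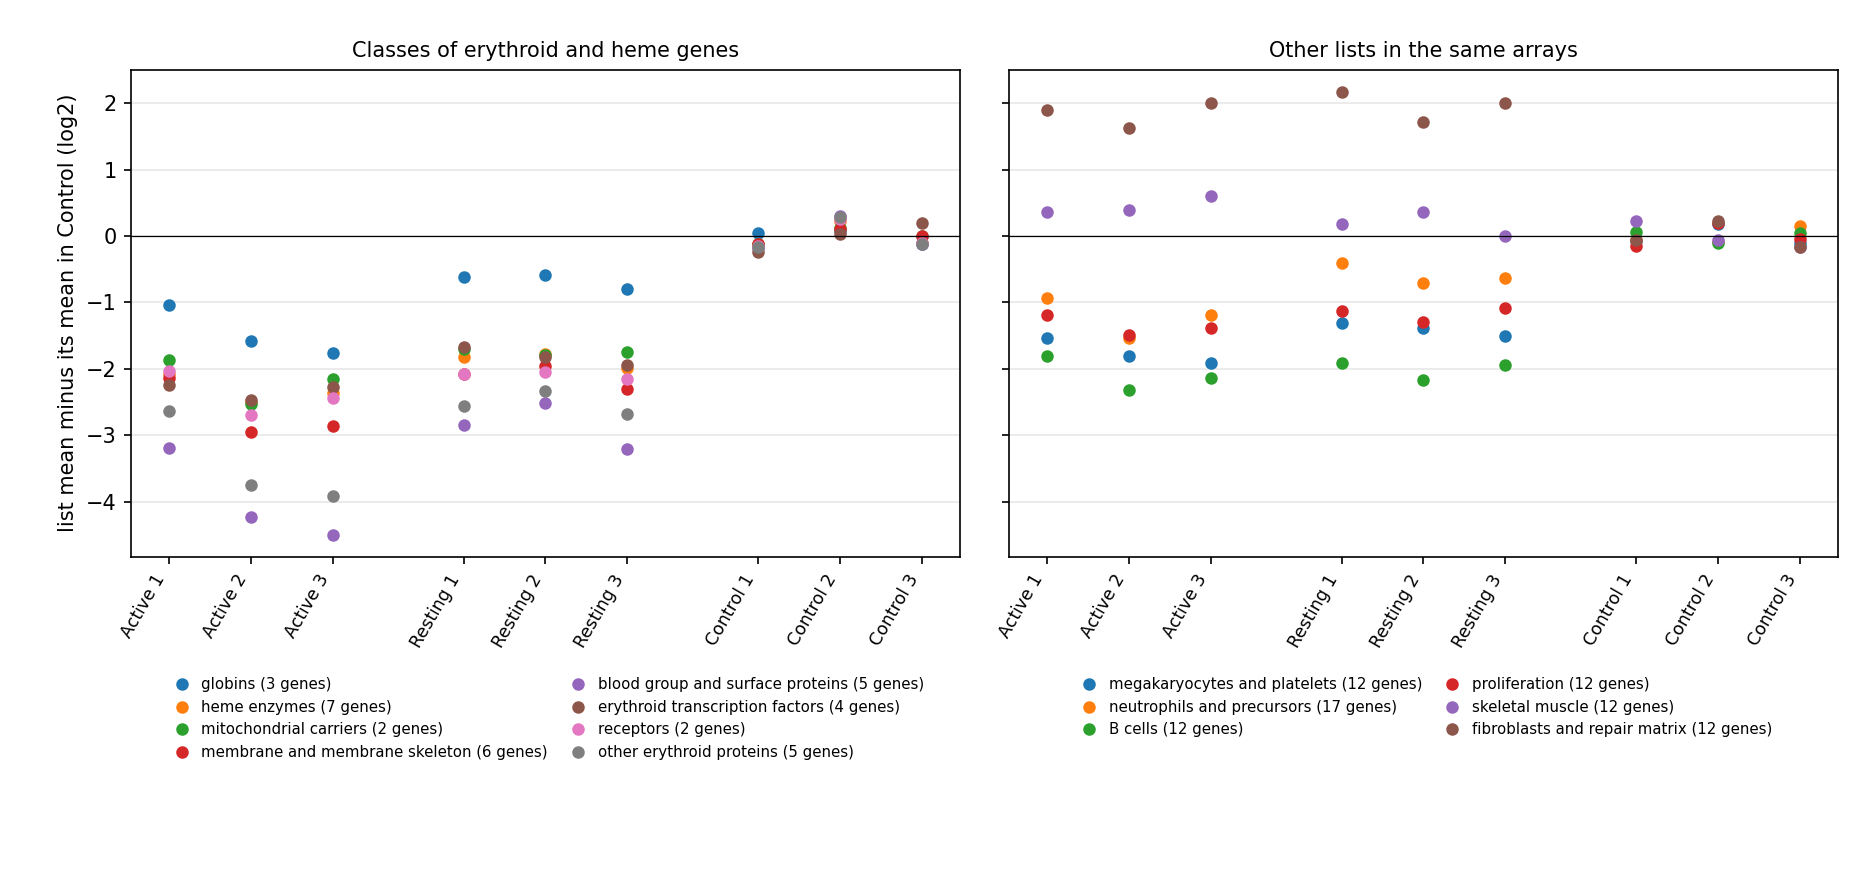
Mean log2 signal of each class of the 34 genes (left) and of other lists (right) in each array, minus the mean of the list in the 3 control arrays (y axis), with active arrays on the left, resting arrays in the middle and control arrays on the right of each panel. Blood group and surface proteins lie lowest, at -3.19, -4.23 and -4.50 in active arrays, and active replicate 1 lies above the other active arrays in every class.

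Without active replicate 1, 13 of the 34 genes passed an adjusted p under 0.05 as lower in the active group (0.135% of all rows did), and the median difference was -0.83. They were Slc4a1, -2.14 (SE 0.18, adjusted p = 0.00419), Car2, -1.996 (SE 0.18, adjusted p = 0.00469), Alas2, -1.85 (SE 0.18, adjusted p = 0.00693), Kel, -1.91 (SE 0.21, adjusted p = 0.0105), Car1, -1.66 (SE 0.18, adjusted p = 0.0105), Ermap, -1.55 (SE 0.18, adjusted p = 0.0134), Hba-a2, -1.03 (SE 0.12, adjusted p = 0.0134), Trim10, -1.59 (SE 0.19, adjusted p = 0.0134), Rhag, -2.05 (SE 0.25, adjusted p = 0.0162), Epb4.2, -1.33 (SE 0.16, adjusted p = 0.0162), Add2, -0.84 (SE 0.11, adjusted p = 0.0209), Hba-a1, -0.83 (SE 0.12, adjusted p = 0.0404), and Slc25a37, -1.07 (SE 0.16, adjusted p = 0.049). Alas2 was the only heme enzyme among them, and no transcription factor or receptor passed, with Klf1 at -1.12 (SE 0.18, adjusted p = 0.0669) and Epor at -0.71 (SE 0.12, adjusted p = 0.0819). Leaving out any other active or resting array gave 0 calls among the 34, with medians between -0.81 and -0.52. No label or header sets active replicate 1 apart from the other arrays.

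Promoter sequence was read for the genes that moved together. RefSeq windows of the mouse build GRCm38.p6 were at hand for 26 of the 34 genes (Epb4.2 under its current symbol Epb42). Hbb-b1, Fech, Slc25a37, Ank1, Slc4a1, Nfe2, Car1 and Car2 had no window and are outside the counts and medians that follow. Their differences from control in active arrays ran from -1.34 for Hbb-b1 to -4.28 for Car1. In each window the 250 bases before the start were searched on both strands. The letters searched were AGATAA or TGATAA for GATA factors, or either with G as the last letter. For KLF1 they were CCACACCC or CCCCACCC, or either with G as the fifth letter, and TGAGTCA was searched for NFE2. A GATA match was found in 16 of the 26 genes, a KLF1 match in 10 and an NFE2 match in 2. Counted by window, 53.3% of the 30 windows of these genes held a GATA match, against 26.5% of all 32851 windows, 36.7% held a KLF1 match, against 27.4%, and 6.67% held an NFE2 match, against 4.46%. The 16 genes with a GATA match had a median difference from control of -3.36 in active and -2.52 in resting arrays, and the 10 without one had -1.84 and -1.55. For KLF1 the order was the other way round: the 10 genes with a match had medians of -1.9998 in active and -1.88 in resting arrays, and the 16 without one had -3.27 and -2.50. The matches are descriptions of these letters and not of binding, and no test was run on them.

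The stretches below are those around the matches, 5′ to 3′ on the strand of the gene and with the matches in capitals, for the alpha globins, the first heme enzyme, 1 later one, genes with the largest differences and the factors. They lie at chr11:32283474-32283509 for Hba-a1, chr11:32296291-32296326 for Hba-a2, chrX:150547316-150547413 for Alas2, chr16:58670102-58670142 for Cpox, chr17:40811103-40811138 for Rhag, chr17:36869396-36869539 for Trim10, chr8:84901887-84901922 for Klf1 (all on the plus strand), and chr2:121037083-121037118 for Epb42, chr6:41704326-41704572 for Kel and chrX:7967943-7967980 for Gata1 (all on the minus strand).
Hba-a1: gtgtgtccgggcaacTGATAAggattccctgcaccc
Hba-a2: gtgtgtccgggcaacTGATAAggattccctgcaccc
Alas2: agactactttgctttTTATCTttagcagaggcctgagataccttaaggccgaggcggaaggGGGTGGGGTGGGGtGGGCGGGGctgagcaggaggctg
Cpox: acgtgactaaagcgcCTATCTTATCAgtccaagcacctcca
Epb42: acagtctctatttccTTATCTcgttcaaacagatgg
Kel: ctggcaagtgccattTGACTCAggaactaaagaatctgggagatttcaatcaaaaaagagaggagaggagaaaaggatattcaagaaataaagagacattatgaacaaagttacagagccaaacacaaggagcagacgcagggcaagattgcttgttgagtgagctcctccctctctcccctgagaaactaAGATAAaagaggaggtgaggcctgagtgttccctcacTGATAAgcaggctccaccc
Rhag: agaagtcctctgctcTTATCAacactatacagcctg
Trim10: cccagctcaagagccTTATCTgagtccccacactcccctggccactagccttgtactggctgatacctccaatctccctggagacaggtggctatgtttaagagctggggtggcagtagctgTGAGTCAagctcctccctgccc
Klf1: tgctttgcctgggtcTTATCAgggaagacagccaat
Gata1: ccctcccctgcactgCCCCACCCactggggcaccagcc

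The alpha globin stretches were identical, part of a run of 247 bases that the windows of Hba-a1 and Hba-a2 share. The first base of the GATA match lay 31 bases before the start in Rhag, 80 in Klf1, 86 in Alas2, 183 in Hba-a1, 186 in Hba-a2 and 226 in Epb42. Kel held GATA matches beginning 56 and 19 bases before its start and an NFE2 match farther upstream. In Cpox the 2 GATA matches, beginning 91 and 86 bases before the start, overlapped by 1 base. Alas2 held 1 GATA match and 3 KLF1 matches, of which the first 2 overlapped. Gata1 held a KLF1 match and no GATA match. The presence of a match did not follow the size of the difference gene by gene. Uros, at -1.10 in active arrays, held 2 GATA matches in 1 window, while Tspo2, at -3.31, held no match to any of the 3 motifs and Alad, at -2.54, held KLF1 matches only, as did Bpgm, at -1.38, and Tmod1, at -0.49. The beta globin row of Hbb-b1 is annotated to Hbb-bs as well, whose stretch at chr7:103827999-103828153 on the minus strand held a GATA and a KLF1 match.
Hbb-bs: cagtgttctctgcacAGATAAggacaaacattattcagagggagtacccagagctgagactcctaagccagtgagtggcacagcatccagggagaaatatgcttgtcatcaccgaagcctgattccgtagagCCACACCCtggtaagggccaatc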

How the data were processed

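Total RNA from mouse tibia was measured on 9 GeneChip Mouse Gene 2.0 ST arrays, 3 in each of 3 groups. The authors labelled 100 ng of RNA, scanned the arrays and deposited normalized log2 signals. GeneSpring GX was the software, per the methods, and the study's own analysis included only entities flagged present. No filter on such flags was applied here. The log2 scale was inferred from values between 2.31 and 13.81. How the signals were normalized, to which log base and against which genome build is not given in the sources used here. Of the tables, the one used has 24367 rows with gene symbols, and every row was found with identical values in a further table of 41345 probe sets. Replicate numbers of the active and resting groups differ between the tables, so those of the table with gene symbols are used. The platform annotation gave 1 gene for 30 of the 34 rows and several for 4 (Hba-a1, Hba-a2, Hbb-b1 and Alas2).

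The test was limma 3.58.1 in R 4.3.3 (lmFit and eBayes, 1 fit of all 9 arrays, 6 residual degrees of freedom), with Benjamini-Hochberg adjustment over all 24367 rows. A call is an adjusted p under 0.05. For single genes a two-sided exact permutation test was run as well. The fit was tested on simulated data. Values with an SD are means of 3 arrays, and their number limits the precision, since arrays give no depth. Values were given per array for globins, Alas2, Fech, Slc4a1, Klf1, Gata1, Car2, Tfrc and the 3 genes with the largest and the 3 with the smallest difference in each comparison. From the further lists, up to 4 genes with the smallest p against control could be named, and the other genes named from them, such as Alas1, the embryonic globins, the ferritins and Col1a1, were chosen after their values were seen. The 34 genes, the lists and the tests were chosen with earlier results of these data known. Promoter windows came from RefSeq (GRCm38.p6). Alternatives were leaving out each array, quantile normalization or median centring, array weights, an intensity trend in eBayes, a filter on dim rows, averaged rows of a gene, the table of probe sets, a fit of 6 arrays, the methods' t-test, the replicate number as a block and a 1.5-fold threshold. A block with the numbers of the probe set table was added after seeing the data. The study's serum, behavioural and bone imaging data were not used here. Python 3.11.15 and matplotlib 3.10.9 were used for the figures.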

Additional observations from a re-analysis of the deposited data

How the results depend on the processing

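Against control, all 34 genes passed as lower in the active group and 33 in the resting group with every left-out array. The median differences then ranged from -2.75 to -2.44 in active and from -2.18 to -2.04 in resting arrays. The rows called over the whole table ranged from 4439 to 5777 and from 3333 to 4997, against 5826 and 4653 with all arrays, and came to 2241 and 1978 with the methods' t-test. In that test Hbb-b1 (adjusted p = 0.144) and Slc4a1 (adjusted p = 0.0534) no longer passed in the active group. In the resting group Hba-a2 did not pass after quantile normalization (-0.55, adjusted p = 0.0799), while Hbb-b1 passed in a fit of only the 6 arrays compared (adjusted p = 0.0415) and with its rows averaged (-1.60, adjusted p = 0.00112). Between active and resting arrays, 1 row passed with array weights, 1 with the filter on dim rows and 237 at an unadjusted p under 0.05 with a 1.5-fold change, 19 of the 34 genes among them. Leaving out single arrays gave 0 to 35 rows and 0 to 13 of the 34 genes, and medians between -0.83 and -0.52. The upper ends of these counts came without active replicate 1. Genes near 0 changed sign with left-out arrays, Sptb between -0.16 and 0.27, Slc25a38 between -0.13 and 0.0568, Tal1 between -0.21 and 0.0041 and Bpgm between -0.17 and 0.0009. The cause of these changes was not tested. Samples with the same replicate number did not deviate together (correlations from -0.252 to 0.166), so the numbers do not pair them. With the replicate number as a block, 5502 rows were called in active, 4400 in resting and 0 between active and resting arrays, and the counts of the 34 genes stayed at 34, 33 and 0. The number of arrays limits all values, and dim rows are measured closer to background.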
